A study of Mus musculus with 4 samples.

Results

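The difference of decitabine responses between knockout (KO) and wild-type (WT) mouse leukaemic cells was described gene by gene: the change of the KO cells under decitabine minus the change of the WT cells. A gene was included where at least 3 of its probes had input signal well above background on all 4 arrays and no outlier spot. This left 17034 of the 34819 gene names on the array. The study measured methylated DNA by MeDIP on 2-colour promoter arrays, with 1 array for each of 4 groups: KO cells with decitabine, KO cells untreated, WT cells with decitabine and WT cells untreated. Decitabine was given at 20 nM, once per 24 h over 3 days, and harvest followed at 72 h. All cells grew in medium with human interleukin-6, mouse interleukin-3 and mouse stem cell factor. The labels disagree on the deleted gene: the source names read Mll5WTHM and Mll5KOHM, while the genotype field reads "HOXA9 KO" for the same KO samples and the cell line field reads "MII5". The labels do not say what HM stands for, how many clones or animals the cells came from, or which line they are. MeDIP signal near promoters does not show whether a gene was deleted, and the KO label was not tested here. At Hoxa9, 28 probes passed the filter of input signal well above background on all 4 arrays, the KO arrays included. With 1 array a group no difference below has a replicate check, and no test across arrays was possible.

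DNA methyltransferases add methyl groups to cytosines, mostly in CpG dinucleotides, and DNMT1 restores the pattern on the new strand after replication. Decitabine is a deoxycytidine analog that deoxycytidine kinase phosphorylates. Once built into DNA it traps the methyltransferases, and methylation is lost as cells divide. MeDIP pulls down fragments with an antibody against 5-methylcytosine, so a probe reports the fragments around it rather than a single CpG. Each value is the log2 ratio of MeDIP over input after each array was centred on its own median. A loss of methylation shared by all probes of an array is therefore removed from the values, and a positive response means more MeDIP signal relative to the other probes of the array, not more methylation in absolute terms.

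The probes below are shown because they carry the largest difference, in the direction of their gene, among the probes with MeDIP and input signal bright on all 4 arrays. Bright means well above background by the scanner's own call. They belong to the genes with the 3 highest and 4 lowest bright-probe differences that can be shown, and Fcgr3 was added after its value was seen, for its position next to a transcript start. Sequences are the array's probe sequences on the plus strand of mm9, 5′ to 3′, with CpG dinucleotides in capitals.
Itpr3 chr17:27250958-27251002: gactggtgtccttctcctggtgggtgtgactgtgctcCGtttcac
Cyb5r3 chr15:83004446-83004490: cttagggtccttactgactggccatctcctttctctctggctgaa
Dag1 chr9:108164238-108164297: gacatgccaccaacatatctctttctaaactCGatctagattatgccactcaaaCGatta
Slc7a8 chr14:55398865-55398920: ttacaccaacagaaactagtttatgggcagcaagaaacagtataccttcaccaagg
Slc25a27 chr17:43800983-43801042: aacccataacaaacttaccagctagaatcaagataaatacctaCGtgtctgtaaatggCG
Mxd3 chr13:55430144-55430197: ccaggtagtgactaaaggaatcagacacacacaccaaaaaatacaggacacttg
Cbfa2t3 chr8:125150376-125150426: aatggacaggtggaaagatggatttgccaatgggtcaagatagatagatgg
Fcgr3 chr1:172995096-172995140: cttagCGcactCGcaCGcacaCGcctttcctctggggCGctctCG

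Several of these probes held no CpG, so that the CpGs of the fragment and not of the probe were read. The Itpr3 probe lay in an intron, held 1 CpG and stood among 20 CpGs in 500 bp. The Cyb5r3 probe held 0 CpGs, lay 1446 bp upstream of the nearest annotated transcript start, and had 8 CpGs in 500 bp. The Dag1 probe held 2 CpGs and lay in an intron 1800 bp downstream of the nearest start. At the lower end, the Slc7a8 probe (0 CpGs) and the Cbfa2t3 probe (0 CpGs) lay in introns, and the Slc25a27 probe (2 CpGs) and the Mxd3 probe (0 CpGs) overlapped exons. These had 7 to 9 CpGs in 500 bp. The Fcgr3 probe differed from them: it held 6 CpGs among 56 in 500 bp, with an observed over expected CpG ratio of 0.90, and lay 52 bp upstream of the start.

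Most MeDIP signals were dim. Of all non-control spots, 10.7% were bright in the MeDIP channel in KO decitabine, 2.69% in KO untreated, 9.34% in WT decitabine and 2.73% in WT untreated cells. Among the 328399 probes kept (63.1% of 520554), the scanner software had replaced the MeDIP signal by a surrogate near the background in 37.6% in KO decitabine, 58.9% in KO untreated, 38.7% in WT decitabine and 60.8% in WT untreated cells. Only 8687 kept probes (2.65%) were bright on all 4 arrays. The untreated arrays were thus the limiting ones in both genotypes, and each difference rests on them as much as on the treated arrays. Each array had a slide of its own, and slide and group cannot be told apart.

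Over all kept probes the median response was 0.09 in KO and 0.09 in WT cells, and the median difference was -0.01 (quartiles -0.18 and 0.16). Medians near 0 follow from centring each array on its own median, and centring on probes bright in both channels moved the median difference to -0.32. The difference was above 0 in 8173 genes and ran from -1.54 to 1.52. A gene was counted where it differed at least 2-fold and at least 80% of its probes shared the sign. This held for 20 genes higher in KO (0.117% of the genes) and 24 lower in KO (0.141%), or 0.258% in either direction. At 1.5-fold the counts were 137 higher (0.804%) and 173 lower (1.02%), or 1.82% in either direction. Of the 20 higher genes, 14 combined a positive KO response with a negative WT response, 5 had 2 positive responses and 1 had 2 negative ones. Of the 24 lower genes, 15 had a negative KO and a positive WT response and 9 had 2 positive ones.

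**Figure D1:**
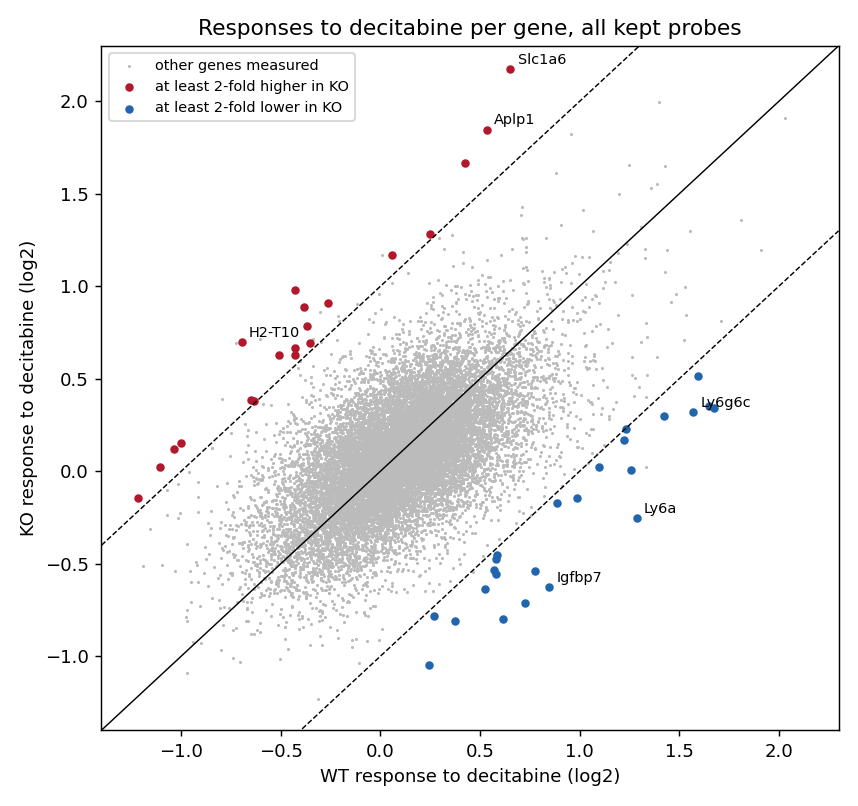
Response to decitabine in KO cells (vertical axis, log2) against that in WT cells (horizontal axis, log2) for 17034 genes over all kept probes. Red and blue points are the 20 genes at least 2-fold higher and the 24 at least 2-fold lower in KO with at least 80% of probes of that sign; the solid line marks equal responses and the dashed lines a 2-fold difference.

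Genes past 2-fold were mostly genes with few probes. Those with 3 to 5 probes numbered 771, had an SD of the difference over genes of 0.48, and held 13 of the higher and 14 of the lower genes. The 6104 genes with over 20 probes had an SD of 0.21 and held 0 of either. Bright signal was scarce among them too: 2 of the 20 higher and 5 of the 24 lower genes had a probe bright on all 4 arrays, and 4 higher and 8 lower genes had no bright probe on any array. The part that probe number plays in these differences was not tested.

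Of the 10 highest named genes over all kept probes, Aplp1 was the one with a probe bright on all 4 arrays. For the other 9 no fold is given, because every probe failed to be bright on at least 1 array. Slc1a6 had mean log2 ratios over 3 kept probes of 0.91 (KO decitabine), -1.27 (KO untreated), -0.52 (WT decitabine) and -1.17 (WT untreated). Its difference of responses was 1.52 ± 1.16 (SD over probes), and its bright probes numbered 1 in KO decitabine, 0 in KO untreated, 1 in WT decitabine and 0 in WT untreated. The KO response of this glutamate transporter gene was 2.17 and the WT response 0.65. Both responses were positive, but no probe was bright on either untreated array, so their sizes are not measured. H2-T10 had mean log2 ratios over 6 kept probes of 0.09 (KO decitabine), -0.61 (KO untreated), -0.31 (WT decitabine) and 0.39 (WT untreated). The difference for H2-T10 was 1.40 ± 0.42 (SD over probes), and its bright probes numbered 1 in KO decitabine, 0 in KO untreated, 0 in WT decitabine and 0 in WT untreated. For this class Ib histocompatibility gene the responses were of opposite sign, 0.70 in KO and -0.70 in WT cells.

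Aplp1 had mean log2 ratios over 4 kept probes of 0.88 (KO decitabine), -0.97 (KO untreated), -0.30 (WT decitabine) and -0.83 (WT untreated). Its difference of responses was 1.31 ± 0.79 (SD over probes), and its bright probes numbered 3 in KO decitabine, 1 in KO untreated, 3 in WT decitabine and 1 in WT untreated. KO decitabine was the highest of the 4 arrays for this gene of the amyloid precursor family, and KO untreated the lowest. Vpreb1 had mean log2 ratios over 5 kept probes of 0.27 (KO decitabine), -0.62 (KO untreated), -0.55 (WT decitabine) and -0.17 (WT untreated). The difference for Vpreb1 was 1.27 ± 1.32 (SD over probes), and its bright probes numbered 1 in KO decitabine, 0 in KO untreated, 1 in WT decitabine and 0 in WT untreated. Vpreb1 encodes part of the surrogate light chain of the pre-B cell receptor, and the SD over its probes was as large as the difference. With normexp background correction the sign turned, to -0.33.

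The other 6 of the highest genes had differences between 1.11 and 1.24. Erich1 had responses of 1.67 in KO and 0.43 in WT cells, a difference of 1.24 ± 0.88 (SD over 4 probes), with bright probes numbering 3 in KO decitabine, 0 in KO untreated, 2 in WT decitabine and 0 in WT untreated. Arfgef2 had responses of 0.79 in KO and -0.37 in WT cells, a difference of 1.16 ± 0.77 (SD over 5 probes), with bright probes numbering 2 in KO decitabine, 0 in KO untreated, 1 in WT decitabine and 1 in WT untreated. This gene encodes an exchange factor for ARF proteins in vesicle traffic. Fau had responses of 1.17 in KO and 0.06 in WT cells, a difference of 1.11 ± 0.80 (SD over 7 probes), with bright probes numbering 2 in KO decitabine, 1 in KO untreated, 1 in WT decitabine and 0 in WT untreated. It encodes a ribosomal protein fused to a ubiquitin-like one. Bat4 had responses of 0.15 in KO and -0.999 in WT cells, a difference of 1.15 ± 0.98 (SD over 4 probes), with bright probes numbering 0 in KO decitabine, 0 in KO untreated, 0 in WT decitabine and 0 in WT untreated. Both olfactory receptor genes in this group had a KO response near 0 and a WT response well below it. No probe of either was bright on an untreated array, so these sizes are not measured. Olfr494 had responses of 0.12 in KO and -1.04 in WT cells, a difference of 1.16 ± 0.67 (SD over 4 probes), with bright probes numbering 0 in KO decitabine, 0 in KO untreated, 0 in WT decitabine and 0 in WT untreated. Olfr822 had responses of 0.03 in KO and -1.11 in WT cells, a difference of 1.13 ± 1.01 (SD over 14 probes), with bright probes numbering 1 in KO decitabine, 0 in KO untreated, 1 in WT decitabine and 0 in WT untreated.

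At the lower end, Ly6g6c was the one of 10 named genes with a probe bright on all 4 arrays, and again no fold is given for the other 9. Ly6a had mean log2 ratios over 4 kept probes of -0.14 (KO decitabine), 0.11 (KO untreated), 0.06 (WT decitabine) and -1.23 (WT untreated). Its difference of responses was -1.54 ± 1.19 (SD over probes), and its bright probes numbered 1 in KO decitabine, 0 in KO untreated, 1 in WT decitabine and 0 in WT untreated. WT untreated lay below the other 3 arrays at Ly6a, which encodes the stem cell antigen Sca-1. Igfbp7 had mean log2 ratios over 5 kept probes of -0.64 (KO decitabine), -0.01 (KO untreated), -0.33 (WT decitabine) and -1.18 (WT untreated). The difference for Igfbp7 was -1.47 ± 0.45 (SD over probes), and its bright probes numbered 0 in KO decitabine, 0 in KO untreated, 1 in WT decitabine and 0 in WT untreated. Igfbp7, a secreted protein that binds insulin-like growth factors, again had its lowest value in WT untreated cells, and KO untreated had its highest. Ly6g6c had mean log2 ratios over 15 kept probes of 0.46 (KO decitabine), 0.14 (KO untreated), 1.04 (WT decitabine) and -0.53 (WT untreated). Its difference of responses was -1.25 ± 1.16 (SD over probes), and its bright probes numbered 5 in KO decitabine, 2 in KO untreated, 9 in WT decitabine and 1 in WT untreated. The KO response was 0.32 and the WT response 1.57 at this gene of the Ly6 family.

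The other 7 of the lowest genes had differences between -1.44 and -1.25. Calm4 had responses of -0.71 in KO and 0.73 in WT cells, a difference of -1.44 ± 0.54 (SD over 3 probes), with bright probes numbering 1 in KO decitabine, 0 in KO untreated, 0 in WT decitabine and 0 in WT untreated. Ugt2b36 had responses of -0.80 in KO and 0.62 in WT cells, a difference of -1.42 ± 0.21 (SD over 3 probes), with bright probes numbering 1 in KO decitabine, 0 in KO untreated, 1 in WT decitabine and 0 in WT untreated. Ugt2b36 encodes a glucuronosyltransferase. Pik3r4 had responses of 0.34 in KO and 1.68 in WT cells, a difference of -1.33 ± 1.56 (SD over 6 probes), with bright probes numbering 2 in KO decitabine, 0 in KO untreated, 3 in WT decitabine and 0 in WT untreated. Pik3r4 is the regulatory subunit of the class III phosphoinositide 3-kinase. Olfr291 had responses of -0.54 in KO and 0.78 in WT cells, a difference of -1.32 ± 0.91 (SD over 3 probes), with bright probes numbering 0 in KO decitabine, 0 in KO untreated, 0 in WT decitabine and 0 in WT untreated. Cyp2a5 had responses of 0.36 in KO and 1.65 in WT cells, a difference of -1.30 ± 0.46 (SD over 4 probes), with bright probes numbering 2 in KO decitabine, 0 in KO untreated, 2 in WT decitabine and 0 in WT untreated. Fbxw13 had responses of -1.05 in KO and 0.24 in WT cells, a difference of -1.29 ± 0.68 (SD over 4 probes), with bright probes numbering 0 in KO decitabine, 0 in KO untreated, 0 in WT decitabine and 0 in WT untreated. Fbxw13 and Olfr291 had no bright probe on any array. Myo1a had responses of 0.0046 in KO and 1.26 in WT cells, a difference of -1.25 ± 1.52 (SD over 7 probes), with bright probes numbering 2 in KO decitabine, 2 in KO untreated, 3 in WT decitabine and 0 in WT untreated. Just past the limits of 2-fold stood Pds5a (1.02) and Cort (-1.003), and just short of them Cyp3a16 (0.99) and Sco2 (-0.997). In the order KO decitabine, KO untreated, WT decitabine and WT untreated, bright probes numbered 1, 0, 0 and 1 for Pds5a. They numbered 4, 3, 5 and 2 for Cort, 1, 0, 1 and 0 for Cyp3a16, and 1, 1, 6 and 0 for Sco2. Pds5a, Cyp3a16 and Sco2 each lacked a bright probe on some array, so their sizes are not measured.

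The 415 genes with at least 3 probes bright on all 4 arrays had MeDIP signal above background at those probes in every group. There the MeDIP ratio was higher with decitabine in both genotypes relative to the array median, with a median response of 0.80 in KO and 0.63 in WT cells. Responses went with signal: kept probes with a MeDIP surrogate on 0 arrays had median responses of 0.57 in KO and 0.46 in WT cells. Those with a surrogate on all 4 arrays had -0.49 and -0.39. What part the dim probes play, through the array median, was not tested. The median difference of the 415 genes was 0.14 (quartiles -0.12 and 0.36), 273 of the 415 genes lay above 0, and the range was -0.92 to 1.19. In the MeDIP channel alone the median difference of these genes was -0.04, so the positive median of the ratio was not seen there. At 1.5-fold with at least 80% of the probes of the same sign, 31 genes were higher in KO (7.47% of 415) and 11 were lower (2.65%), or 10.1% in either direction. At 2-fold there were 4 higher genes (0.964%) and 0 lower. None of the 415 genes was past 2-fold over all kept probes, and 26 of the 42 kept over all their kept probes the sign they had over bright ones.

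How the 4 arrays were ordered differed between the directions. In the 31 higher genes, KO untreated was the lowest array in 22 and KO decitabine the highest in 24. In all 415 genes, KO untreated was the lowest in 154 (37.1%) and KO decitabine the highest in 307 (74.0%). In the 11 lower genes, WT untreated was the lowest array in 11, against 253 of the 415 (61.0%). All 11 lower genes had a positive response in both genotypes, and so did 21 of the 31 higher ones, while the other 10 combined a positive KO with a negative WT response. The lowest array is part of what chose these genes, so the counts are a description. The split by channel, where the difference of the ratio is the MeDIP part minus the input part, differed as well. The MeDIP channel carried the larger part of the difference in 14 of the 31 higher genes and in 10 of the 11 lower ones.

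**Figure D2:**
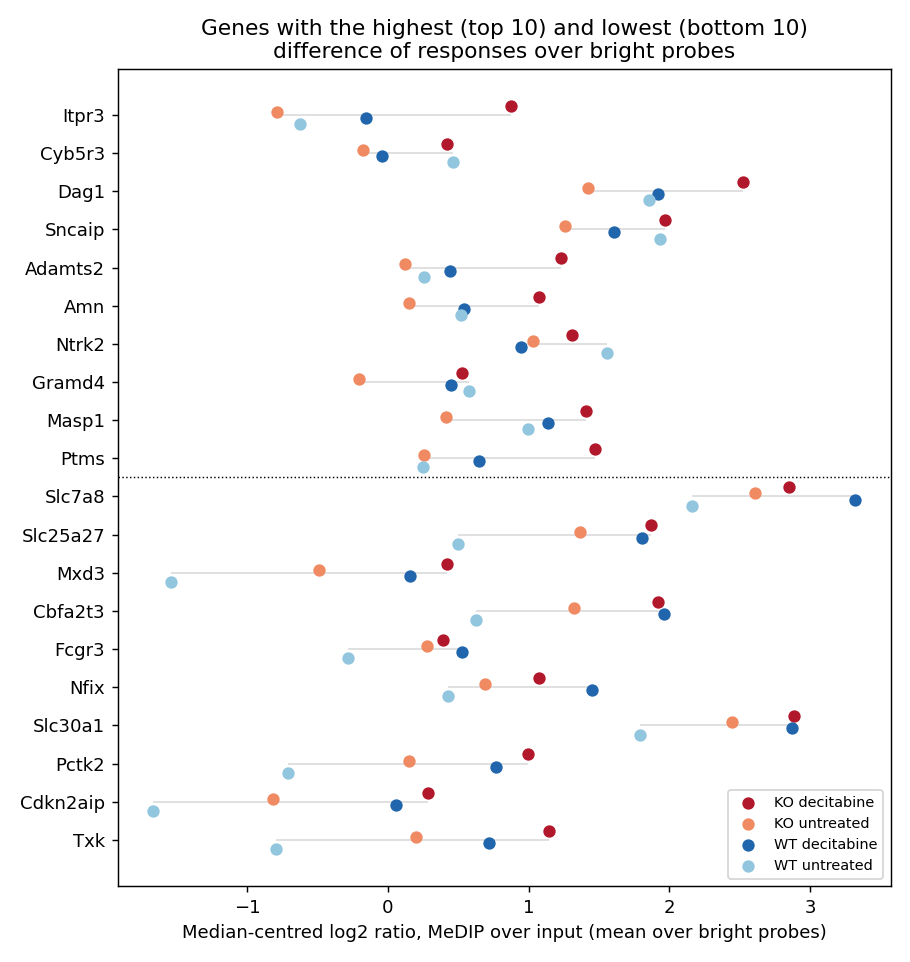
Median-centred log2 ratio of MeDIP over input (horizontal axis), averaged over bright probes, on each of the 4 arrays for the 10 genes with the highest and the 10 with the lowest difference of responses. In the upper genes KO decitabine (dark red) lies to the right of KO untreated (orange) by more than WT decitabine (dark blue) does from WT untreated (light blue); in the lower genes WT untreated is the leftmost point in all 10.

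Itpr3, which encodes a calcium channel of the endoplasmic reticulum opened by inositol trisphosphate, had the highest difference. Over the bright probes of Itpr3 the mean log2 ratios were 0.87 (KO decitabine), -0.79 (KO untreated), -0.15 (WT decitabine) and -0.62 (WT untreated). The difference was 1.19 ± 0.47 (SD over 3 probes). All 3 probes shared the sign, and KO decitabine stood alone above the other arrays. By channel the difference was 0.25 in MeDIP and -0.96 in input, so the input signal carried most of it. Over all 28 kept probes it was 0.35, and its bright probes numbered 8 in KO decitabine, 3 in KO untreated, 6 in WT decitabine and 4 in WT untreated.

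Cyb5r3, the NADH-dependent reductase of cytochrome b5, came next. Bright probes of Cyb5r3 averaged log2 ratios of 0.42 (KO decitabine), -0.17 (KO untreated), -0.04 (WT decitabine) and 0.46 (WT untreated). The difference was 1.10 ± 1.43 (SD over 3 probes). One probe decided this value: the printed one differed by 2.73 and the other 2 by 0.46 and 0.10. Its bright probes numbered 7 in KO decitabine, 5 in KO untreated, 6 in WT decitabine and 3 in WT untreated among 26 kept, and over all of these the difference was 0.04.

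Dag1 encodes dystroglycan, a receptor for the extracellular matrix. Over the bright probes of Dag1 the mean log2 ratios were 2.53 (KO decitabine), 1.42 (KO untreated), 1.92 (WT decitabine) and 1.85 (WT untreated). The difference was 1.04 ± 0.64 (SD over 3 probes). KO decitabine was the highest array and KO untreated the lowest, with both WT arrays between them. The difference was 0.62 in the MeDIP channel and -0.43 in the input, the 3 probes lay in introns, and bright probes numbered 6 in KO decitabine, 3 in KO untreated, 5 in WT decitabine and 4 in WT untreated. Sncaip, which encodes the synuclein-binding protein synphilin-1, had the fourth value above 2-fold. Bright probes of Sncaip averaged log2 ratios of 1.97 (KO decitabine), 1.26 (KO untreated), 1.61 (WT decitabine) and 1.94 (WT untreated). The difference was 1.04 ± 0.58 (SD over 3 probes). The WT response was negative and the difference lay in the MeDIP channel (1.05; input -0.01). Bright probes of Sncaip numbered 6 in KO decitabine, 3 in KO untreated, 8 in WT decitabine and 4 in WT untreated.

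The next 6 genes lay between 1.5-fold and 2-fold. Adamts2 had bright-probe responses of 1.11 in KO and 0.19 in WT cells, a difference of 0.93 ± 0.24. Its probes agreed closely, but the input channel (-0.59) carried more than the MeDIP channel (0.35) for this procollagen-cutting protease, and bright probes numbered 6 in KO decitabine, 4 in KO untreated, 7 in WT decitabine and 3 in WT untreated. Amn had bright-probe responses of 0.92 in KO and 0.02 in WT cells, a difference of 0.90 ± 0.47. Amn anchors the vitamin B12 receptor cubilin at the cell surface, and its bright probes numbered 13 in KO decitabine, 5 in KO untreated, 13 in WT decitabine and 3 in WT untreated. Ntrk2 had bright-probe responses of 0.28 in KO and -0.61 in WT cells, a difference of 0.89 ± 0.59. Most of it sat in the input channel (-0.77), with 0.14 in the MeDIP channel. The neurotrophin receptor gene Ntrk2 had bright probes numbering 15 in KO decitabine, 4 in KO untreated, 14 in WT decitabine and 5 in WT untreated. Gramd4 had bright-probe responses of 0.73 in KO and -0.13 in WT cells, a difference of 0.86 ± 1.001. One Gramd4 probe at 1.98 decided this value, against 0.56 and 0.05 at the others, and bright probes numbered 3 in KO decitabine, 3 in KO untreated, 3 in WT decitabine and 3 in WT untreated.

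Masp1 had bright-probe responses of 0.99 in KO and 0.15 in WT cells, a difference of 0.85 ± 0.64. Masp1 is a protease of the lectin pathway of complement, with bright probes numbering 6 in KO decitabine, 4 in KO untreated, 6 in WT decitabine and 4 in WT untreated. Ptms had bright-probe responses of 1.22 in KO and 0.39 in WT cells, a difference of 0.83 ± 0.70. Ptms, parathymosin, was the one of these 6 with nearly the whole difference in the MeDIP channel (0.88; input 0.03). Its bright probes numbered 9 in KO decitabine, 3 in KO untreated, 8 in WT decitabine and 3 in WT untreated. Its probe with the largest difference (1.61) held 4 CpGs and stood in a window with 78. Over all kept probes the sign turned at Ptms (-0.36), Amn (-0.20), Ntrk2 (-0.10), Masp1 (-0.07) and Gramd4 (-0.07). Adamts2 kept its sign, at 0.14.

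Slc7a8, an amino acid transporter gene, had the lowest difference. Over the bright probes of Slc7a8 the mean log2 ratios were 2.85 (KO decitabine), 2.61 (KO untreated), 3.32 (WT decitabine) and 2.16 (WT untreated). The difference was -0.92 ± 0.37 (SD over 3 probes). WT decitabine was the highest array and WT untreated the lowest. The 3 probes lay in introns and differed by -0.75, -0.66 and -1.34. Most of the difference sat in the input channel (0.80), with -0.10 in the MeDIP channel, and over all kept probes the sign turned to 0.41. Bright probes numbered 5 in KO decitabine, 3 in KO untreated, 5 in WT decitabine and 4 in WT untreated.

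Slc25a27 encodes a mitochondrial carrier of the uncoupling protein family. Bright probes of Slc25a27 averaged log2 ratios of 1.87 (KO decitabine), 1.36 (KO untreated), 1.80 (WT decitabine) and 0.50 (WT untreated). The difference was -0.80 ± 0.41 (SD over 3 probes). Both decitabine arrays were nearly equal, and the untreated arrays were apart. Its bright probes numbered 6 in KO decitabine, 3 in KO untreated, 6 in WT decitabine and 4 in WT untreated. Mxd3 is a partner of MAX that opposes MYC at its binding sites. Over the bright probes of Mxd3 the mean log2 ratios were 0.42 (KO decitabine), -0.49 (KO untreated), 0.16 (WT decitabine) and -1.54 (WT untreated). The difference was -0.80 ± 0.75 (SD over 3 probes). One Mxd3 probe at -1.56 led, against -0.76 and -0.06, and bright probes numbered 5 in KO decitabine, 3 in KO untreated, 6 in WT decitabine and 3 in WT untreated.

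Cbfa2t3, a transcriptional corepressor of blood progenitors, had the most even probes of the 10. Bright probes of Cbfa2t3 averaged log2 ratios of 1.92 (KO decitabine), 1.32 (KO untreated), 1.96 (WT decitabine) and 0.63 (WT untreated). The difference was -0.74 ± 0.17 (SD over 3 probes). The 3 probes differed by -0.60, -0.93 and -0.68, the decitabine arrays were nearly equal, and WT untreated was the lowest array. The difference lay in the MeDIP channel (-0.62; input 0.10). Over its 51 kept probes the gene differed by -0.04, and bright probes numbered 10 in KO decitabine, 3 in KO untreated, 11 in WT decitabine and 3 in WT untreated.

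Fcgr3 encodes an activating Fc receptor of myeloid cells. Over the bright probes of Fcgr3 the mean log2 ratios were 0.39 (KO decitabine), 0.28 (KO untreated), 0.53 (WT decitabine) and -0.28 (WT untreated). The difference was -0.70 ± 0.32 (SD over 3 probes). WT untreated was the one array below 0. All 3 probes lay in windows of 41 to 56 CpGs, from 52 bp upstream to 821 bp downstream of the nearest start, and differed by -0.68, -0.39 and -1.02. The MeDIP channel gave -0.91 and the input -0.22; the gene differed by -0.39 over all 18 kept probes, and bright probes numbered 6 in KO decitabine, 3 in KO untreated, 6 in WT decitabine and 3 in WT untreated. Nfix had bright-probe responses of 0.38 in KO and 1.03 in WT cells, a difference of -0.64 ± 0.29. Nfix, a nuclear factor I transcription factor gene, had bright probes numbering 16 in KO decitabine, 5 in KO untreated, 19 in WT decitabine and 8 in WT untreated, and 5 of 5 bright on all arrays shared the sign. Over all 41 kept probes Nfix differed by -0.03.

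Slc30a1 had bright-probe responses of 0.44 in KO and 1.08 in WT cells, a difference of -0.64 ± 0.28. The zinc exporter gene Slc30a1 had bright probes numbering 11 in KO decitabine, 3 in KO untreated, 11 in WT decitabine and 4 in WT untreated. Pctk2 had bright-probe responses of 0.84 in KO and 1.47 in WT cells, a difference of -0.63 ± 0.68. Pctk2, a cyclin-dependent kinase gene, differed by 0.57 over all its kept probes, the opposite sign, and had bright probes numbering 7 in KO decitabine, 3 in KO untreated, 4 in WT decitabine and 3 in WT untreated. Cdkn2aip had bright-probe responses of 1.10 in KO and 1.73 in WT cells, a difference of -0.62 ± 0.90. One Cdkn2aip probe at -1.66 decided this value for a partner of the tumour suppressor ARF, against -0.06 and -0.15 at the others. Its bright probes numbered 8 in KO decitabine, 4 in KO untreated, 6 in WT decitabine and 3 in WT untreated. Txk had bright-probe responses of 0.94 in KO and 1.51 in WT cells, a difference of -0.56 ± 0.45. The T cell kinase gene Txk stood just short of 1.5-fold, with bright probes numbering 7 in KO decitabine, 3 in KO untreated, 5 in WT decitabine and 5 in WT untreated. Over all kept probes the differences were -0.04 at Slc30a1, -0.06 at Slc25a27, -0.08 at Txk, -0.20 at Cdkn2aip and -0.22 at Mxd3.

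The bright counts depended on the processing. Centring on probes bright in both channels, loess and normexp moved the median difference of the 415 genes to -0.16, -0.27 and -0.42, against 0.14 here. With that shift 5, 3 and 1 of the 31 higher genes stayed past 1.5-fold and the lower counts became 42, 72 and 107, so that all 11 lower genes staying among them is no sign of stability. Of the 31 higher and 11 lower genes, 17 and 6 stayed with quantile normalization, 23 and 8 with the median over probes, 9 and 4 in the MeDIP channel alone, and 1 and 1 with at least 5 bright probes. By sign alone, 16 of the 31 higher and 11 of the 11 lower genes were unchanged under the 11 settings compared gene by gene, and the downward shifts favour the lower genes in this count. In the MeDIP channel alone 24 of the 31 and 11 of the 11 kept their sign.

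Probes printed at 2 spots of every array gave a measure of technical error within the arrays. The SD of a single spot was taken as the SD of the difference between the spots of a pair, divided by the square root of 2. Over 617 such probes bright on all arrays, this SD was 0.31 for the difference of responses, with r = 0.77, and 80.1% of pairs shared the sign. Over 26564 kept probes the SD was 0.75, with r = 0.30, and 60.3% of pairs shared the sign. Both spots of a pair shared the DNA, the labelling and the array. Neighbouring probes shared little: within 150 bp r was 0.16 over 197 bright pairs and 0.08 over 87876 kept pairs, and beyond 2000 bp it was -0.01 in both.

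**Figure D3:**
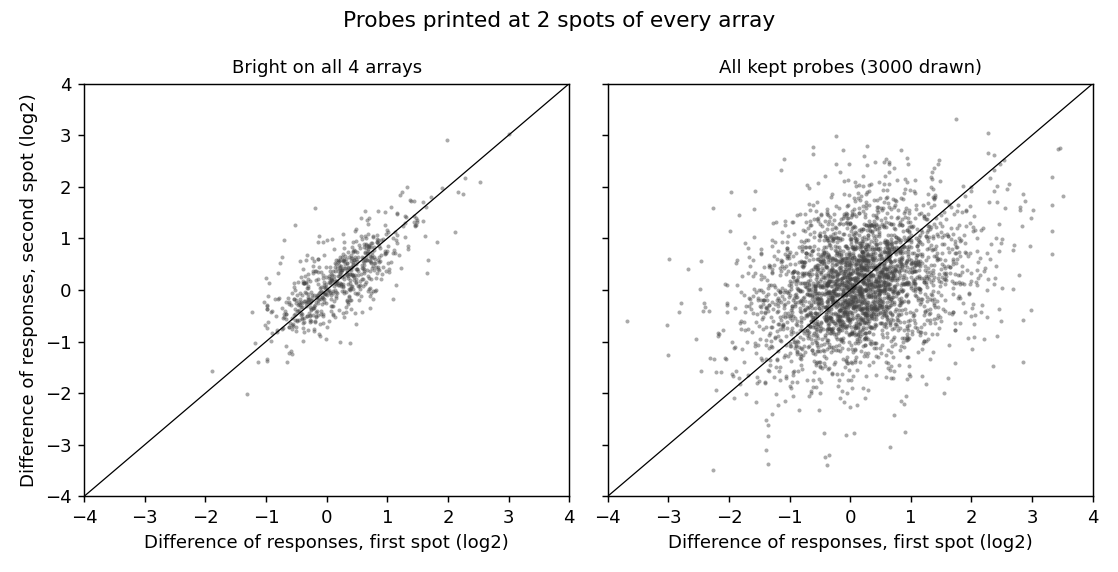
Difference of responses at the second spot (vertical axis, log2) against that at the first spot (horizontal axis, log2) of probes printed at 2 spots of each array; the line marks equality. Bright probes (left, n = 617) lie near the line with r = 0.77, and kept probes (right, a draw of the 26564 pairs) scatter with r = 0.30.

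CpG density separated probes over the kept set but hardly over the bright set. In windows of 500 bp with at least 41 CpGs, as in CpG islands, 23572 kept probes had a median response of 0.56 in KO and 0.19 in WT cells, and a median difference of 0.21. In windows of 11 to 20 CpGs the responses were -0.0011 in KO and 0.06 in WT cells, with a median difference of -0.11 over 44001 probes. Classes with fewer CpGs had medians of -0.08 to -0.05. Over bright probes the medians of the 6 classes ran from 0.10 to 0.20. They fell from 0.20 at 0 to 2 CpGs to 0.10 at 11 to 20, and rose to 0.18 at 41 and more. The median at CpG-dense probes exceeded that at probes with 6 to 20 CpGs by 0.29 over kept probes and by 0.07 over bright ones. In the MeDIP channel alone these gaps were -0.02 and -0.18, the opposite sign. The input channel moved with CpG density: its own difference had a median of -0.35 at the densest kept probes and 0.02 at those with 6 to 10 CpGs, while the MeDIP channel gave -0.10 and -0.07. The responses of both genotypes to decitabine were larger at CpG-dense bright probes, 1.18 in KO and 1.02 in WT cells, than at those with 0 to 2 CpGs, 0.62 in KO and 0.36 in WT cells.

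**Figure D4:**
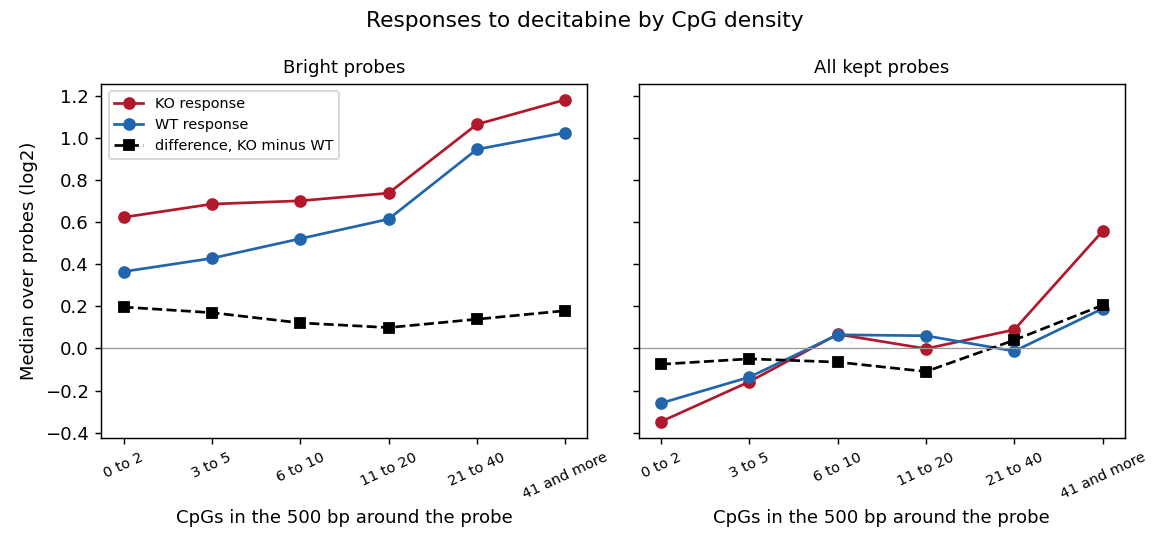
Median response of KO cells (red), median response of WT cells (blue) and median difference (black, dashed), in log2 on the vertical axis, by the number of CpGs in the 500 bp around the probe, for bright probes (left) and all kept probes (right). Over kept probes the KO line lies furthest above the WT line at 41 and more CpGs, where the median difference is 0.21 (0.04 at 21 to 40 CpGs). Over bright probes the KO line lies above the WT line in every class. The bright lines are further apart at 0 to 2 CpGs (0.62 and 0.36) than at 21 to 40 (1.06 and 0.95).

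By position, the median difference over bright probes was 0.16 in exons, 0.13 in introns and 0.15 between genes, and over kept probes it was -0.0031 in exons, -0.06 in introns and -0.02 between genes. Chromosome medians over bright probes ran from 0.09 to 0.21, except chromosome 16 at 0.35 (244 probes). Over kept probes chromosome 16 stood at -0.0045 within a range of -0.06 to 0.0038.

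Gene lists for pathways of this drug and these cells were set beside all genes, whose median was -0.01 with 8173 of 17034 above 0. Of the 364 list entries measured among 394, 1 was past 2-fold, Vpreb1, whose sign turned with normexp. This is 0.275% of the entries, beside 0.258% of all genes. Over bright probes 13 entries had at least 3, and Fcgr3 was the one past 1.5-fold, where 10.1% of the 415 genes were. Medians of the 14 lists ran from -0.14 to 0.04.

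**Figure D5:**
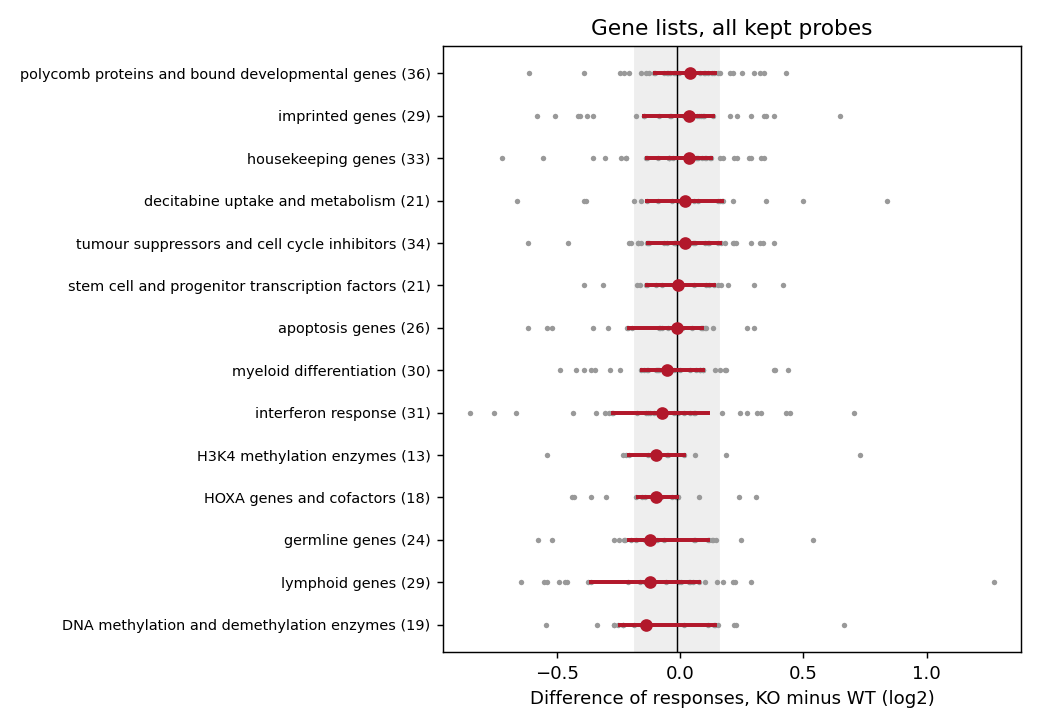
Difference of responses (horizontal axis, log2) of each list member (grey points), with the list's median (red point) and quartiles (red bar); the number of measured genes is in parentheses. The grey band and line are the quartiles and median of all 17034 genes; list medians run from -0.14 to 0.04, and single genes of every list spread more widely.

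Among the DNA methylation and demethylation enzymes and readers, 8 of 19 genes lay above 0 and the median was -0.14. The maintenance methyltransferase gene Dnmt1 had log2 ratios of -0.06 (KO decitabine), -0.11 (KO untreated), 0.0043 (WT decitabine) and -0.30 (WT untreated). The groups were close together, and the difference of -0.25 ± 1.07 (SD over 18 probes) stood at percentile 17.4 of all genes, with bright probes numbering 4 in KO decitabine, 2 in KO untreated, 4 in WT decitabine and 1 in WT untreated. Dnmt3a had responses of 0.35 in KO and 0.21 in WT cells, a difference of 0.14 ± 1.06 (SD over 30 probes), with bright probes numbering 8 in KO decitabine, 1 in KO untreated, 8 in WT decitabine and 2 in WT untreated. Dnmt3b had responses of -0.10 in KO and 0.03 in WT cells, a difference of -0.13 ± 0.75 (SD over 21 probes), with bright probes numbering 0 in KO decitabine, 0 in KO untreated, 1 in WT decitabine and 0 in WT untreated. These are the methyltransferases that set new methylation. Dnmt3l had responses of 0.68 in KO and 0.95 in WT cells, a difference of -0.27 ± 0.83 (SD over 27 probes), with bright probes numbering 8 in KO decitabine, 2 in KO untreated, 9 in WT decitabine and 1 in WT untreated. Dnmt3l, their cofactor in germ cells, stood at percentile 15.8.

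The members of that list with a probe bright on all arrays ended in Mbd2 and Zbtb4, both of which bind methylated DNA. Mbd2 had responses of 0.42 in KO and -0.25 in WT cells, a difference of 0.67 ± 1.19 (SD over 23 probes), with bright probes numbering 7 in KO decitabine, 3 in KO untreated, 3 in WT decitabine and 4 in WT untreated. Zbtb4 had log2 ratios of 1.03 (KO decitabine), 0.11 (KO untreated), 0.51 (WT decitabine) and -0.95 (WT untreated). Both responses were positive, WT more so than KO: they were 0.92 in KO and 1.46 in WT cells, a difference of -0.54 ± 1.22 (SD over 10 probes) at percentile 2.94. Its bright probes numbered 6 in KO decitabine, 1 in KO untreated, 6 in WT decitabine and 1 in WT untreated.

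In decitabine uptake and metabolism, 12 of 21 genes lay above 0 with a median of 0.02. Dck had responses of -0.32 in KO and -0.39 in WT cells, a difference of 0.07 ± 0.72 (SD over 21 probes), with bright probes numbering 1 in KO decitabine, 0 in KO untreated, 0 in WT decitabine and 1 in WT untreated. Dck makes the first phosphorylation of the drug, and its response was below 0 in both genotypes. Cda had responses of 0.11 in KO and 0.14 in WT cells, a difference of -0.03 ± 1.06 (SD over 15 probes), with bright probes numbering 4 in KO decitabine, 2 in KO untreated, 3 in WT decitabine and 2 in WT untreated. Cda, the deaminase that inactivates decitabine, had a difference near 0. Rrm1 had responses of 0.40 in KO and -0.10 in WT cells, a difference of 0.50 ± 1.40 (SD over 20 probes), with bright probes numbering 4 in KO decitabine, 1 in KO untreated, 2 in WT decitabine and 1 in WT untreated. This large subunit of ribonucleotide reductase was the highest member with a probe bright on all 4 arrays, and Nt5c, a nucleotidase, the lowest. Nt5c had responses of -0.11 in KO and 0.55 in WT cells, a difference of -0.66 ± 0.92 (SD over 13 probes), with bright probes numbering 1 in KO decitabine, 1 in KO untreated, 3 in WT decitabine and 1 in WT untreated.

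Of the HOXA genes and cofactors, 3 of 18 lay above 0 and the median was -0.10. The HOXA genes lie in one cluster, so their probes are neighbours, but the cofactors Meis1 and Pbx4 lie on other chromosomes. Whether shared position plays a part in this count was not tested. Hoxa9, the gene of the genotype field, had log2 ratios of -0.21 (KO decitabine), -0.44 (KO untreated), -0.44 (WT decitabine) and -0.59 (WT untreated). The difference of 0.08 ± 0.93 (SD over 28 probes) was small beside the spread of its probes, and bright probes numbered 3 in KO decitabine, 1 in KO untreated, 4 in WT decitabine and 1 in WT untreated. Hoxa9 was also the highest member with a probe bright on all arrays, and Pbx4 the lowest. Pbx4 had responses of 0.39 in KO and 0.83 in WT cells, a difference of -0.44 ± 1.001 (SD over 8 probes), with bright probes numbering 3 in KO decitabine, 2 in KO untreated, 3 in WT decitabine and 1 in WT untreated. Meis1 had responses of -0.06 in KO and -0.05 in WT cells, a difference of -0.01 ± 0.93 (SD over 36 probes), with bright probes numbering 2 in KO decitabine, 1 in KO untreated, 2 in WT decitabine and 1 in WT untreated. Meis1, a cofactor of HOXA9 in myeloid leukaemia, hardly differed between any of the arrays. Among the H3K4 methylation enzymes 4 of 13 lay above 0, with a median of -0.10. Wdr5 had responses of 0.51 in KO and -0.22 in WT cells, a difference of 0.73 ± 1.16 (SD over 20 probes), with bright probes numbering 1 in KO decitabine, 1 in KO untreated, 2 in WT decitabine and 1 in WT untreated. Setd7 had responses of 0.17 in KO and 0.40 in WT cells, a difference of -0.23 ± 1.01 (SD over 26 probes), with bright probes numbering 8 in KO decitabine, 3 in KO untreated, 7 in WT decitabine and 1 in WT untreated. Wdr5 is a core subunit of the MLL complexes and Setd7 a monomethyltransferase.

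Imprinted, tumour suppressor, germline and polycomb lists had medians on both sides of 0. Imprinted genes had a median of 0.04 with 17 of 29 above 0. Cdkn1c had responses of 0.42 in KO and 0.04 in WT cells, a difference of 0.38 ± 0.87 (SD over 29 probes), with bright probes numbering 5 in KO decitabine, 2 in KO untreated, 4 in WT decitabine and 2 in WT untreated. Snrpn had responses of 0.08 in KO and 0.59 in WT cells, a difference of -0.51 ± 0.91 (SD over 23 probes), with bright probes numbering 5 in KO decitabine, 1 in KO untreated, 6 in WT decitabine and 1 in WT untreated. Cdkn1c, a cell cycle inhibitor, was also the highest member with a probe bright on all 4 arrays among tumour suppressors, where 17 of 34 lay above 0 and the median was 0.02. Wif1 had responses of -0.17 in KO and 0.45 in WT cells, a difference of -0.62 ± 1.33 (SD over 20 probes), with bright probes numbering 4 in KO decitabine, 1 in KO untreated, 4 in WT decitabine and 1 in WT untreated. Wif1 is an inhibitor of WNT signalling. Germline genes had a median of -0.12 with 9 of 24 above 0. Mael had responses of 0.29 in KO and 0.15 in WT cells, a difference of 0.15 ± 0.76 (SD over 26 probes), with bright probes numbering 4 in KO decitabine, 2 in KO untreated, 3 in WT decitabine and 1 in WT untreated. Tex11 had responses of 0.28 in KO and 0.86 in WT cells, a difference of -0.57 ± 0.75 (SD over 14 probes), with bright probes numbering 7 in KO decitabine, 4 in KO untreated, 6 in WT decitabine and 3 in WT untreated. Polycomb proteins and bound developmental genes had a median of 0.04 with 19 of 36 above 0. Rbbp4 had responses of 0.37 in KO and 0.03 in WT cells, a difference of 0.34 ± 0.74 (SD over 13 probes), with bright probes numbering 2 in KO decitabine, 1 in KO untreated, 1 in WT decitabine and 1 in WT untreated. Nkx2-5 had responses of 0.11 in KO and 0.27 in WT cells, a difference of -0.16 ± 0.88 (SD over 49 probes), with bright probes numbering 8 in KO decitabine, 1 in KO untreated, 6 in WT decitabine and 1 in WT untreated.

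Interferon response genes had a median of -0.07 with 12 of 31 above 0. Ifit3 had responses of 0.66 in KO and -0.05 in WT cells, a difference of 0.71 ± 1.13 (SD over 4 probes), with bright probes numbering 1 in KO decitabine, 1 in KO untreated, 1 in WT decitabine and 1 in WT untreated. Bst2 had responses of -0.34 in KO and 0.42 in WT cells, a difference of -0.76 ± 0.90 (SD over 13 probes), with bright probes numbering 2 in KO decitabine, 1 in KO untreated, 2 in WT decitabine and 1 in WT untreated. Apoptosis genes had a median of -0.01 with 12 of 26 above 0. Tnfrsf10b had responses of 0.47 in KO and 0.20 in WT cells, a difference of 0.27 ± 1.005 (SD over 12 probes), with bright probes numbering 3 in KO decitabine, 2 in KO untreated, 3 in WT decitabine and 2 in WT untreated. Bak1 had responses of -0.18 in KO and 0.33 in WT cells, a difference of -0.52 ± 0.83 (SD over 16 probes), with bright probes numbering 4 in KO decitabine, 3 in KO untreated, 4 in WT decitabine and 2 in WT untreated. Tnfrsf10b encodes a death receptor and Bak1 a pore-forming protein of mitochondria. Housekeeping genes had a median of 0.04 with 19 of 33 above 0. Polr2a had responses of 0.54 in KO and 0.19 in WT cells, a difference of 0.34 ± 1.20 (SD over 15 probes), with bright probes numbering 4 in KO decitabine, 1 in KO untreated, 3 in WT decitabine and 2 in WT untreated. Ldha had responses of -0.31 in KO and 0.04 in WT cells, a difference of -0.35 ± 0.73 (SD over 27 probes), with bright probes numbering 5 in KO decitabine, 4 in KO untreated, 5 in WT decitabine and 4 in WT untreated. Over the 4 Ldha probes bright on all 4 arrays the sign turned, to 0.39 ± 0.75 (SD over probes).

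Stem cell and progenitor factors had a median of -0.01 with 9 of 21 above 0. Flt3 had responses of 0.14 in KO and -0.05 in WT cells, a difference of 0.19 ± 0.83 (SD over 18 probes), with bright probes numbering 8 in KO decitabine, 3 in KO untreated, 6 in WT decitabine and 4 in WT untreated. Gata2 had responses of 0.10 in KO and 0.41 in WT cells, a difference of -0.31 ± 0.92 (SD over 52 probes), with bright probes numbering 12 in KO decitabine, 6 in KO untreated, 13 in WT decitabine and 2 in WT untreated. Myeloid differentiation genes had a median of -0.05 with 13 of 30 above 0. Mmp9 had responses of 0.17 in KO and -0.01 in WT cells, a difference of 0.18 ± 0.93 (SD over 27 probes), with bright probes numbering 6 in KO decitabine, 1 in KO untreated, 4 in WT decitabine and 1 in WT untreated. Lcn2 had responses of 0.22 in KO and 0.64 in WT cells, a difference of -0.42 ± 0.99 (SD over 20 probes), with bright probes numbering 6 in KO decitabine, 2 in KO untreated, 7 in WT decitabine and 1 in WT untreated. Lcn2 and Mmp9 are proteins of neutrophil granules. Lymphoid genes had a median of -0.12 with 12 of 29 above 0, Vpreb1 included. Cd8a had responses of -0.25 in KO and 0.40 in WT cells, a difference of -0.64 ± 1.03 (SD over 23 probes), with bright probes numbering 2 in KO decitabine, 1 in KO untreated, 5 in WT decitabine and 1 in WT untreated. Cd8a marks cytotoxic T cells.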

How the data were processed

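MeDIP DNA was compared with input DNA on 4 Agilent arrays, 1 per group. Per the labels, Cy3 held MeDIP DNA and Cy5 input DNA on every array, with no dye swap. The authors deposited scanner intensities. The submitters' processing notes name Agilent Feature Extraction 10.5, and the file headers give 10.5.1.1. The deposited intensities were already background-subtracted and dye-normalized per the file headers. The deposited log10 ratio of Cy5 over Cy3 served as an alternative, and the series value table was not used. Coordinates follow mm9, as the file headers do, and 519521 probe sequences matched that genome.

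From the processed intensities, the log2 MeDIP to input ratio of each spot was computed and averaged per probe over all its spots. It was centred on the median of the kept probes of each array, with no loess or quantile step. Kept probes had input well above background on all 4 arrays and no spot flagged as a non-uniformity outlier in either channel on any array. A gene's value is the mean over its kept probes, at least 3, and the difference is (KO decitabine minus KO untreated) minus (WT decitabine minus WT untreated). Gene names come from the array annotation and can be old. Members, lists and named genes were chosen with earlier results of these data known. Named were the 10 highest and 10 lowest genes over all kept probes and over bright probes (at least 3 bright, at least 80% of probes of the same sign), the highest and lowest member of each of 14 lists with a probe bright on all arrays, and Hoxa9, Meis1, Dnmt1, Dnmt3a, Dnmt3b, Dnmt3l, Dck, Cda and Zbtb4. One gene that met this rule is not reported here. Work was done in Python 3.11.15, numpy 2.4.6 and pandas 2.3.3, and loess, quantile and normexp (offset 50) alternatives in R 4.3.3 with limma 3.58.1. The computation was tested on simulated data. In all, 14 alternative settings were run. Errors after ± are SDs over probes of 1 array per group, which limits the precision and allows no test. Probes not bright in MeDIP have only a bound there.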

Additional observations from a re-analysis of the deposited data

Results flagged for a closer look

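Among the named genes past 2-fold over all kept probes or past 1.5-fold over bright probes, 16 had KO and WT responses of opposite sign on the single array pair of each genotype, and the difference was not tested. Over all kept probes KO was positive and WT negative at H2-T10 (difference 1.40), Vpreb1 (1.27), Olfr494 (1.16), Arfgef2 (1.16), Bat4 (1.15) and Olfr822 (1.13). KO was negative and WT positive at Ly6a (-1.54), Igfbp7 (-1.47), Calm4 (-1.44), Ugt2b36 (-1.42), Olfr291 (-1.32) and Fbxw13 (-1.29). Vpreb1 turned to -0.33 with normexp. None of these 12 genes had a probe bright on all 4 arrays. Over bright probes KO was positive and WT negative at Cyb5r3 (1.10), Sncaip (1.04), Ntrk2 (0.89) and Gramd4 (0.86). A response below 0 is relative to the array median and does not give the direction of methylation itself. At Cyb5r3 and Gramd4 a single probe decided the value, as given above. At Ntrk2 most of the difference sat in the input channel (-0.77), with 0.14 in the MeDIP channel.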

How the results depend on the processing

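The single-gene values under alternatives were 794, for the 74 named genes. Of these, 34 had another sign than in the main setting. They were 13 with normexp, 8 with centring on probes bright in both channels and 13 under other settings. Among the named genes past their fold this was 1, Vpreb1 over all kept probes (-0.33 with normexp). Genes not named turned more often: of all 31 higher genes over bright probes, 16 kept their sign under the 11 settings compared. By size, 745 of the 794 values moved by less than the SD over probes. That SD had a median of 0.92 over all genes, so it is a wide limit. Of 154 list medians, 142 moved by less than the SD over the members of the list. The main counts were 20 higher and 24 lower over all kept probes, and 31 higher and 11 lower over bright probes. Centring on probes bright in both channels gave 4 higher and 150 lower over all kept probes, and 5 higher and 42 lower over bright ones, and moved the median of all genes to -0.32. Every list median moved by the same amount as that median. Where this was more than the SD over members, the medians became -0.44 (DNA methylation), -0.40 (HOXA), -0.40 (H3K4), -0.27 (imprinted), -0.42 (germline), -0.31 (stem cell), -0.36 (myeloid), -0.29 (tumour suppressors), -0.32 (apoptosis), -0.26 (polycomb) and -0.27 (housekeeping). The decitabine, interferon and lymphoid lists had wider SDs over members (0.32, 0.35 and 0.37). With normexp the median of all genes was -0.14 and that of the polycomb list -0.17. Centring on housekeeping genes gave 12 higher and 37 lower over all kept probes and 17 lower over bright ones. Loess gave 37 higher over all kept probes, and 3 higher and 72 lower over bright ones. Quantile normalization gave 41 higher over all kept probes and 17 lower over bright ones. Normexp gave 4 higher over all kept probes, and 1 higher and 107 lower over bright ones. The MeDIP channel alone gave 10 higher over all kept probes and 19 lower over bright ones. Without the input filter 12 were lower over all kept probes. With at least 5 probes there were 10 higher and 14 lower over all kept probes, and 1 higher and 1 lower over bright ones, since fewer genes qualify. At the other fold (1.5 over all kept probes, 2 over bright ones) the counts were 137 higher and 173 lower, and 4 higher and 0 lower. Apart from these, the cause was not tested.

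The gap between CpG-dense probes and those with 6 to 20 CpGs, an alternative chosen after seeing the data, was 0.29 over kept and 0.07 over bright probes. It was 0.55 over kept and 0.39 over bright probes with quantile normalization, 0.14 over kept probes with normexp, and -0.028 over bright probes with loess. In the MeDIP channel alone it was -0.018 over kept and -0.18 over bright probes. The cause was not tested. A slide block could not be fitted, and leaving out an array leaves no difference to compute. No paired analysis was possible because each group has 1 array. The dim MeDIP signal limits 10991 of the 17034 genes (64.5%), which have no probe bright on all 4 arrays.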
